A study of Mesocricetus auratus with 38 samples.

Results

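The genes of the complement and coagulation systems were followed in liver RNA of Golden Syrian hamsters, the plasma protein cascades that the liver largely supplies. The members were 45 genes listed by symbol, from the C1q subunits that start the classical complement pathway to the fibrinogen chains and the inhibitors of clotting. Of the 45, 37 were rows of the deposited count and TPM tables, which hold 14631 gene symbols, and 36 passed the filter on low counts among 9099 tested genes. C6, a terminal complement component, was in the tables but did not pass, with a mean of 0.106 ± 0.0999 TPM (SD, n = 8) in the control group. C2, C5, Cfb, C4bpa, F9, F10, Kng1 and Pros1 were not found under those symbols and were not analysed here.

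The males fell into 4 groups. The control group (9 libraries, labelled Chow diet) ate a diet with 11% of its calories as fat for 12 weeks. In the HFD group (10 libraries) 23% of dietary calories came from fat, cholesterol was added, and a placebo was given over the last 4 of the same 12 weeks. The HFD + MI_D1 group (9 libraries, Dose I) ate that high-fat diet and for the last 4 weeks received combined metabolic activators (CMA), namely 200 mg/kg L-carnitine, 200 mg/kg N-acetyl-l-cysteine, 200 mg/kg nicotinamide riboside and 400 mg/kg betaine. The HFD + MI_D2 group (10 libraries, Dose II) received 400, 400, 400 and 800 mg/kg of these over the same 4 weeks. The animals were 22 weeks old, each library was taken as 1 liver, and the control group differed from the others in diet, so no group received CMA without the HFD.

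Complement is a set of plasma proteins that tag and lyse targets. Its classical pathway begins with C1q, its lectin pathway with mannose-binding lectin and its MASP proteases, and its alternative pathway with factor B and factor D, while properdin stabilises the convertase. All of them meet at C3 and end in the membrane attack complex of C5b to C9. Coagulation factors are serine proteases and cofactors that end in thrombin, which turns fibrinogen into fibrin, and plasmin dissolves the clot. Hepatocytes make most of these proteins, whereas the 3 chains of C1q are made by macrophages, in the liver chiefly Kupffer cells. By this textbook division 29 of the 36 tested members were hepatocyte-made, 3 were the macrophage-made C1q subunits and 4 (Cfp, Cfd, C7 and Tfpi) had another or a mixed source.

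Total estimated counts were 4075609 to 10384523 per library in the 37 libraries analysed, and the members took 3.56% to 6.21% of them. One control was dropped by the study on its principal component analysis. It was matched, by refitting without each control in turn, to a library called C105 here (libraries carry a letter for their group, namely C, H, DI or DII, and their label number). It is left out below unless stated, so that the control group has n = 8. Among the 36 tested members C105 lay above all 8 other controls for 19, below all of them for 5 and inside their range for 12. The same counts were not made over all genes, so this is not shown to be particular to the members. The labelled tissue was checked on hepatocyte markers, whose summed level was 150009 to 175143 (median 166951) TPM in the control group and 115192 to 148436 (median 134199) TPM in the HFD group, with albumin (Alb) alone at 121038 ± 7596 TPM (SD, n = 8) and 85579 ± 10382 TPM (SD, n = 10). Of 11 tested hepatocyte markers 2 rose and 5 fell in the HFD group (none and 4 with C105). In bulk liver RNA, fewer cells of a type and less RNA per cell cannot be told apart.

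Levels were compared between genes as TPM, a unit scaled by transcript length. In the control group the fibrinogen chains led, with Fgb at 4479 ± 573, Fgg at 4304 ± 559 and Fga at 3403 ± 391 TPM (SD, n = 8). Antithrombin (Serpinc1), the main inhibitor of thrombin, was at 2505 ± 132.95 TPM, vitronectin (Vtn), which binds and blocks the terminal complex, at 1903 ± 125.7 TPM, and C3, the hub of complement, at 1524 ± 274 TPM. Serpinc1 and Vtn lay further apart than their SDs reach. Among the fibrinogen chains only Fga and Fgb did, while the SD range of Fgg overlapped those of both. Plasminogen (Plg) at 1178 ± 146 TPM and prothrombin (F2) at 1070.1 ± 87.1 TPM followed, and their SD ranges overlapped. At the other end stood C1qa at 33.9 ± 5.99, C1qb at 25.4 ± 3.21 and C1qc at 13.5 ± 3.28 TPM, properdin (Cfp) at 5.03 ± 0.941, C7 at 2.95 ± 0.779 and tissue factor pathway inhibitor (Tfpi) at 1.64 ± 0.894 TPM. The 30 hepatocyte-made members measured, C6 included, summed to 26291 ± 1704 TPM in the control group against 72.8 ± 11.7 TPM for the 3 C1q subunits, and the fibrinogen chains made up 46.2 ± 3.68% of the hepatocyte-made sum (SD, n = 8).

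The comparison of the HFD with the control group asks how the diet moved these cascades. All 3 C1q subunits rose, the hepatocyte-made factors split into risers and fallers, and the 2 measured alternative pathway genes rose. At an adjusted p under 0.1 in edgeR, 9 members rose (C1qa, C1qb, C1qc, C8g, Cfd, Cfp, F7, Mbl2 and Proc), 7 fell (C8a, Cpb2, F11, F13b, F5, Masp1 and Serpinf2) and 20 did not pass. That is 44.4% of the members, against 36.2% of all genes tested, of which 18.1% rose and 18.1% fell, a share of called members close to this background. Of the 29 hepatocyte-made members 4 rose and 7 fell, with a median log2 fold change of -0.05 against 0.01 over all genes. The macrophage-made subunits had a median log2 fold change of 0.70. The counts depended on C105. With C105 put back, 1 member rose (Cfp) and 6 fell (Cpb2, F13b, F2, F5, Masp1 and Serpinf2), beside 15.6% of all 9045 genes tested then, 6.63% rising and 8.94% falling.

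**Figure D1:**
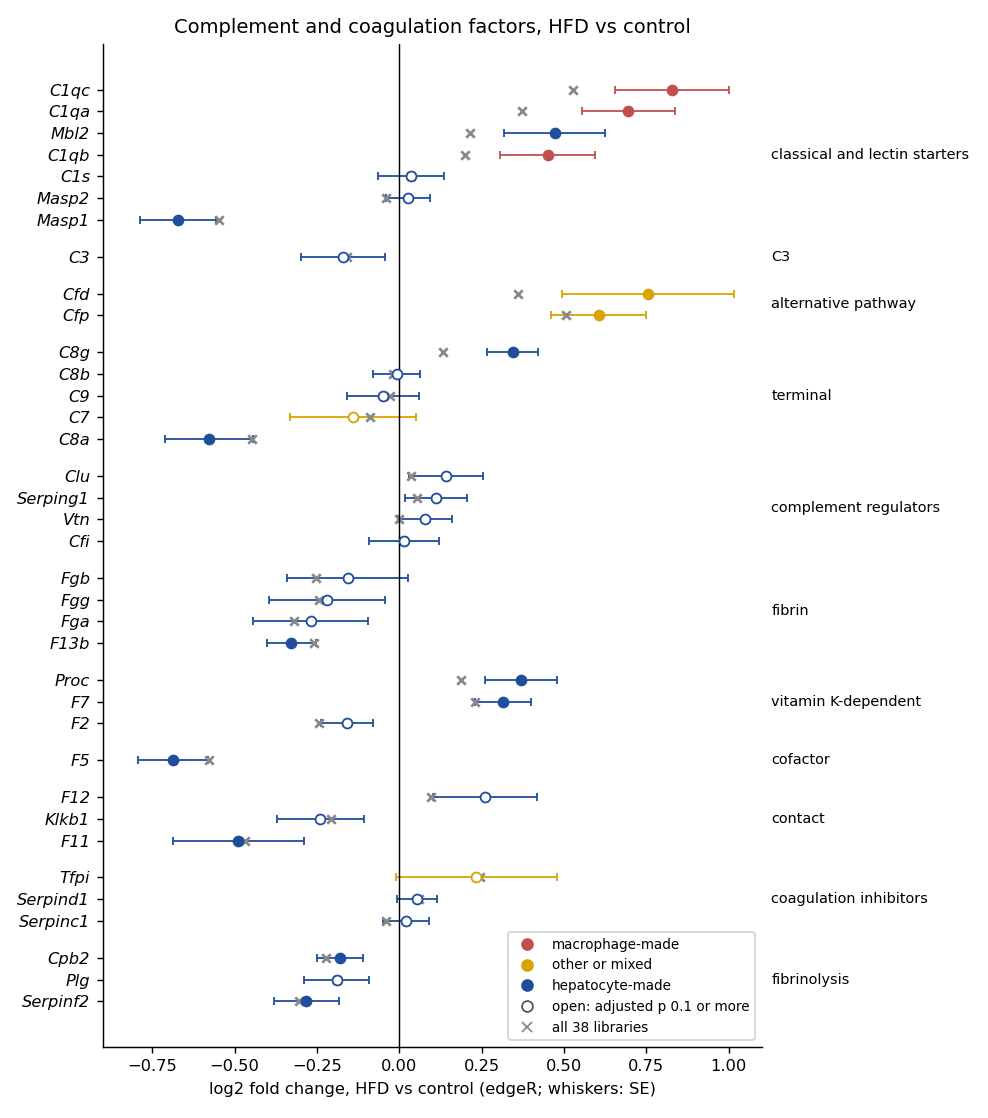
log2 fold changes of the 36 tested members, HFD vs. control, from the edgeR fit over 37 libraries, grouped by role and coloured by source; whiskers are SE, filled points passed an adjusted p of 0.1, and grey crosses are the estimates over all 38 libraries. C1qc (0.83) and F5 (-0.69) are the outermost points, and the crosses of most risers lie nearer 0 than their points.

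C1q is the recognition unit of the classical pathway, built from A, B and C chains, each with a gene of its own. C1qa read 25.3 to 40.99 CPM (median 29.4) in the control group and 39.4 to 67.02 CPM (median 48.2) in the HFD group. C1qb read 18.97 to 28.7 CPM (median 25.1) and 24.5 to 51.9 CPM (median 30.1), and C1qc read 19.4 to 35.5 CPM (median 23.5) and 30.9 to 69.2 CPM (median 45.9). For C1qa and C1qb 9 of 10 HFD livers lay above the highest control, and for C1qc 7 of 10, so the groups overlapped in a few livers. Expressed per length and summed, the subunits stood at 72.8 ± 11.7 TPM (SD, n = 8) in the control group and at 112.3 ± 22.4 TPM (SD, n = 10) in the HFD group. All 3 passed the test, namely C1qa (log2 fold change 0.70, SE 0.14, adjusted p = 0.000439), C1qb (log2 fold change 0.45, SE 0.15, adjusted p = 0.0186) and C1qc (log2 fold change 0.83, SE 0.17, adjusted p = 0.000628). The means of C1qb, 24.7 ± 3.09 CPM (SD, n = 8) and 34.07 ± 9.08 CPM (SD, n = 10), lay closer together than their SDs reach.

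C105, at 103.2, 68.4 and 80.7 CPM for C1qa, C1qb and C1qc, exceeded every other liver of the series for each of these genes. With it in the fit the log2 fold changes were 0.37, 0.20 and 0.53, and the adjusted p were 0.222, 0.516 and 0.105, so that none of the subunits passed. All 3 kept their positive sign. C1qc was called higher with C105 once each library's trend with length was removed as well.

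**Figure D2:**
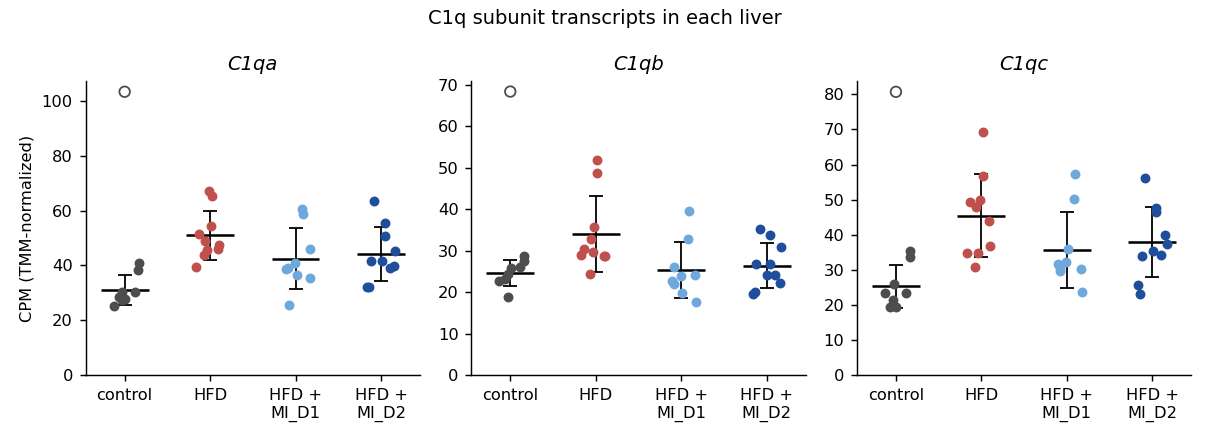
CPM of C1qa, C1qb and C1qc in each liver by group (points), with the group mean and SD over the 37 analysed libraries (bars); the open circle is C105. C105 (103.2, 68.4 and 80.7 CPM) is the highest point of each panel, and the HFD group sits above the other 8 controls with some overlap.

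Markers of Kupffer cells and macrophages moved with C1q. Of 18 tested markers 10 rose in the HFD group and none fell, with a median log2 fold change of 0.45, among them Marco, a scavenger receptor (log2 fold change 1.01, SE 0.16, adjusted p = 2.17e-05), Cd5l, a protein that tissue macrophages secrete (log2 fold change 0.82, SE 0.15, adjusted p = 0.00015), and Csf1r, the receptor for macrophage growth factor (log2 fold change 0.39, SE 0.12, adjusted p = 0.0167). Their summed level was 191 to 263 (median 210.4) TPM in the control group, 226 to 403 (median 331) TPM in the HFD group, 186 to 376 (median 204) TPM in the Dose I group and 154 to 291 (median 236) TPM in the Dose II group. Clec4f, a lectin of Kupffer cells, had a log2 fold change of 0.25 and did not pass, and no marker tested was at 0 in a whole group. Over all 38 libraries 7 of the 18 rose and none fell. Of 9 markers of sinusoidal endothelium 3 rose (none with C105), of 7 stellate cell and fibroblast markers none was called, and the lymphocyte markers in the tables were too low to test. The part of macrophage number in the C1q values was not tested.

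Properdin and factor D serve the alternative pathway, properdin (Cfp) coming mainly from leukocytes and factor D (Cfd) mainly from fat tissue. Cfp read 12.3 to 20 CPM (median 14.3) in the control group and 14 to 30.7 CPM (median 22.6) in the HFD group. It was higher than every control in 8 of 10 HFD livers (log2 fold change 0.61, SE 0.14, adjusted p = 0.00201). It was also the only member that rose when C105 was added to this edgeR fit (log2 fold change 0.51, adjusted p = 0.0268). Cfd read 9.55 to 27.1 CPM (median 16.3) and 14.5 to 48.9 CPM (median 26.7), with 5 of 10 HFD livers above the highest control (log2 fold change 0.76, SE 0.26, adjusted p = 0.0272). C105 held 68.9 CPM of Cfd, and with it the log2 fold change was 0.36 (adjusted p = 0.469). C7 and Tfpi, both of low level, had log2 fold changes of -0.14 and 0.23 and did not pass.

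The starters of the lectin pathway moved in opposite directions. Mbl2, a mannose-binding lectin that recognises microbial sugars, read 56.4 to 117.2 CPM (median 94.9) in the control group and 74.9 to 162 CPM (median 132.5) in the HFD group, with 8 of 10 HFD livers above all controls (log2 fold change 0.47, SE 0.15, adjusted p = 0.0196). Masp1, a protease that travels with the lectins, read 61.8 to 74.6 CPM (median 70.3) and 31.4 to 64.2 CPM (median 41.3), and 9 of 10 HFD livers lay below the lowest control (log2 fold change -0.67, SE 0.12, adjusted p = 7.99e-05). Masp2, the protease that cleaves C4 and C2, read 449 to 564 CPM (median 501) and 454 to 549.6 CPM (median 524) and had a log2 fold change of 0.03 with a 95% interval of -0.11 to 0.16. C1s, the protease of the C1 complex, had 0.04 (-0.16 to 0.23). The fall of Masp1 held with C105 (-0.55, adjusted p = 0.0257) although that library, at 15.98 CPM, lay below every other liver. The rise of Mbl2 did not pass then (0.21, adjusted p = 0.504), C105 holding 252 CPM.

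C3 and the complement regulators showed no called difference. C3 read 4852 to 8948 CPM (median 6861) in the control group and 4054 to 8087 CPM (median 5728) in the HFD group, and the ranges overlapped (log2 fold change -0.17, SE 0.13, adjusted p = 0.331). The 95% interval of its log2 fold change was -0.42 to 0.08. Cfi (factor I, which cuts C3b), Serping1 (C1 inhibitor), Vtn and Clu (clusterin) had log2 fold changes of 0.01, 0.11, 0.08 and 0.14, with adjusted p from 0.368 to 0.937.

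Among the terminal components the 3 chains of C8 parted. C8a, the alpha chain that inserts into the membrane, read 160.2 to 272 CPM (median 215) in the control group and 85.8 to 226 CPM (median 130.8) in the HFD group, and 7 of 10 HFD livers lay below the lowest control (log2 fold change -0.58, SE 0.13, adjusted p = 0.00159). C8g, the gamma chain, a lipocalin, read 108.1 to 144 CPM (median 121.97) and 141 to 177 CPM (median 157), with 8 of 10 HFD livers above the highest control (log2 fold change 0.34, SE 0.08, adjusted p = 0.00141). C8b, the beta chain, had a log2 fold change of -0.01 (-0.15 to 0.13) and C9, which forms the pore, -0.05 (-0.27 to 0.17). With C105 in this edgeR fit neither C8a (-0.45, adjusted p = 0.107) nor C8g (0.13, adjusted p = 0.539) passed, that library holding 43.7 CPM of C8a and 298 CPM of C8g. C8a was still called lower with C105 by DESeq2, and in edgeR once each library's trend with length was removed.

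The largest fall among the coagulation factors was in F5, factor V, the cofactor of the prothrombinase complex. F5 read 753 to 1102 CPM (median 912) in the control group and 413 to 801 CPM (median 561) in the HFD group, and 9 of 10 HFD livers lay below the lowest control (log2 fold change -0.69, SE 0.11, adjusted p = 1.79e-05). It also fell with C105 in the fit (-0.58, adjusted p = 0.00644), a library with 310.4 CPM. F11, a protease of the contact pathway, read 463 to 1039.6 CPM (median 553) and 288 to 708 CPM (median 451), with 5 of 10 HFD livers below all controls (log2 fold change -0.49, SE 0.20, adjusted p = 0.0609). This call was lost when any 1 of 5 libraries was left out (C101, C103, H112, H115 and H118). Its log2 fold change ran from -0.57 to -0.35 with each library left out in turn. With C105 put back F11 did not pass in edgeR (-0.47, adjusted p = 0.114), though DESeq2 called it lower. F12 and Klkb1 (plasma kallikrein), the other contact factors measured, had 0.26 and -0.24 and did not pass.

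Of the vitamin K-dependent proteins, 2 rose and prothrombin did not pass. Proc (protein C), which inactivates factor V, read 463 to 744 CPM (median 589) in the control group and 605 to 978 CPM (median 772) in the HFD group, and F7, the protease that starts the extrinsic pathway, read 81.2 to 111.2 CPM (median 94.1) and 91.2 to 139.8 CPM (median 121.2). In both, 6 of 10 HFD livers lay above the highest control. Proc rose (log2 fold change 0.37, SE 0.11, adjusted p = 0.0108), and so did F7 (log2 fold change 0.31, SE 0.09, adjusted p = 0.00613). F2 read 1893 to 2365 CPM (median 2115) and 1688 to 2178 CPM (median 1927) (log2 fold change -0.16, SE 0.08, adjusted p = 0.131). With C105 in the fit F2 passed as lower (-0.24, adjusted p = 0.0781). Proc (0.19, adjusted p = 0.413) and F7 (0.23, adjusted p = 0.119) did not pass then.

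**Figure D3:**
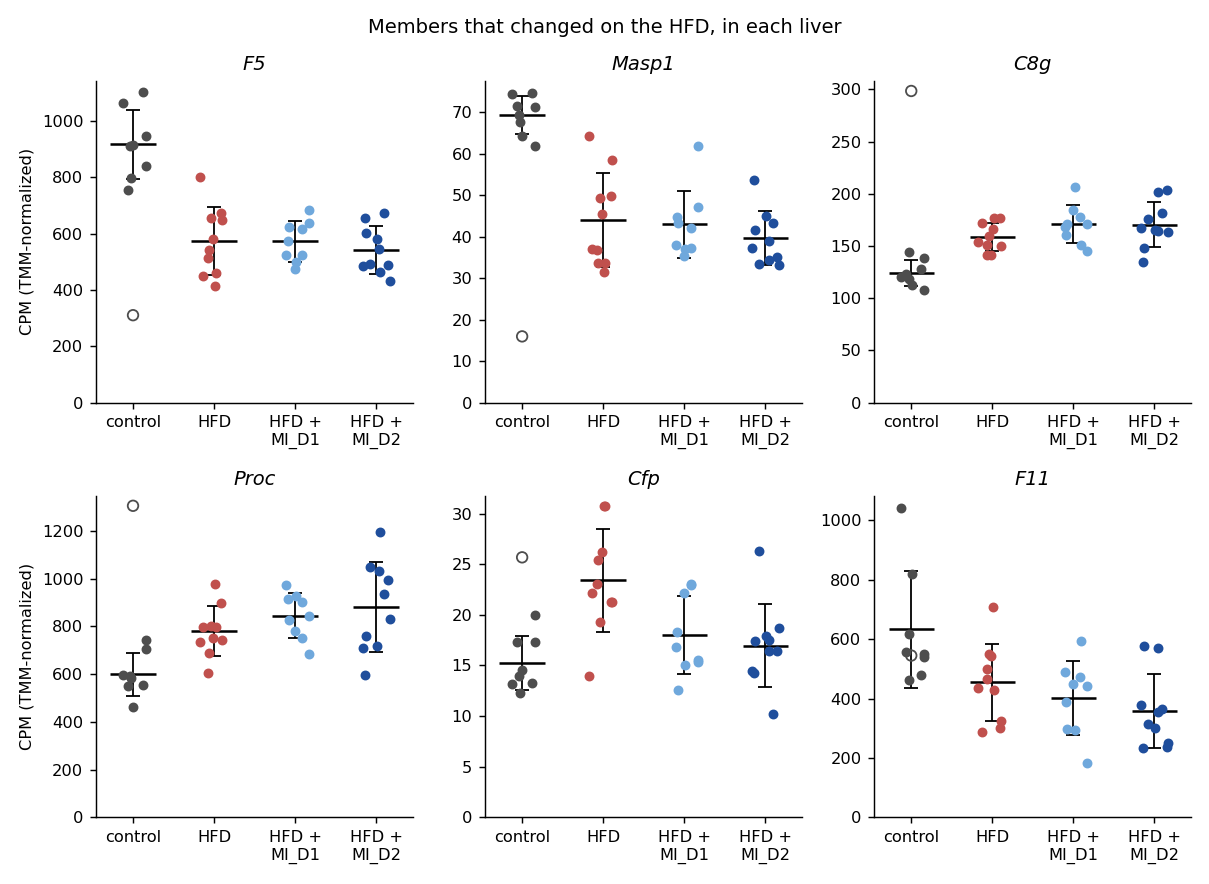
CPM of F5, Masp1, C8g, Proc, Cfp and F11 in each liver by group (points), with mean and SD over the 37 analysed libraries (bars) and C105 as an open circle. Among the 37, mean F5 and Masp1 are highest in the control group and mean C8g and Proc lowest there, and C105 lies beyond the HFD group in F5 (310.4 CPM), Masp1 (15.98 CPM), C8g (298 CPM) and Proc (1305 CPM).

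Among the members, the thrombin-inhibiting serpins Serpinc1 and Serpind1 were not called. Serpinc1 read 2695 to 3308 CPM (median 2950.3) in the control group and 2533 to 3347 CPM (median 3102) in the HFD group, with a log2 fold change of 0.02 (-0.12 to 0.16). Serpind1 (heparin cofactor II) had 0.05 (-0.07 to 0.17). Both intervals exclude a log2 fold change as large as that of Cpb2, the smallest called.

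Fibrinogen, the clot's substrate, was not called in any chain in this fit, though Fga passed with only these 2 groups fitted (log2 fold change -0.27, adjusted p = 0.0528). Fga read 7137 to 10234 CPM (median 9315) in the control group and 6137 to 11432 CPM (median 7321) in the HFD group, Fgb 5783 to 8132 CPM (median 7654) and 5214 to 9079 CPM (median 6358), and Fgg 5549.7 to 7971 CPM (median 6956) and 4828 to 7882 CPM (median 5693). The groups overlapped widely, with log2 fold changes of -0.27 (-0.61 to 0.07), -0.16 (-0.52 to 0.20) and -0.22 (-0.56 to 0.12). F13b, the carrier subunit of the enzyme that cross-links fibrin, read 392 to 521 CPM (median 481) and 308 to 442 CPM (median 383), with 5 of 10 HFD livers below all controls, and fell (log2 fold change -0.33, SE 0.07, adjusted p = 0.00121).

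On the fibrinolytic side, Serpinf2 (the plasmin inhibitor) read 588 to 807 CPM (median 683) in the control group and 449 to 701 CPM (median 542) in the HFD group (log2 fold change -0.28, SE 0.10, adjusted p = 0.0293). Cpb2, a carboxypeptidase that shields fibrin from plasmin, read 720.5 to 842 CPM (median 778) and 583 to 824 CPM (median 718) (log2 fold change -0.18, SE 0.07, adjusted p = 0.0483). Both fell, and both also fell with C105 in the fit (adjusted p = 0.0411 and 0.048), as F13b did (0.0579). Cpb2 did not pass without H113, H115 or H118, its log2 fold change running from -0.21 to -0.14 with each library left out in turn. Plg, the precursor of plasmin, read 2218 to 3309.7 CPM (median 2933) and 2088 to 3219.8 CPM (median 2518) and did not pass (log2 fold change -0.19, SE 0.10, adjusted p = 0.145).

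Set against each other within a liver, the summed TPM of the hepatocyte-made members was 262 to 439 (median 378) times that of C1q in the control group and 153 to 288 (median 235) times in the HFD group. In this ratio 7 of 8 controls lay above every HFD liver. In the Dose I group it was 166 to 468 (median 266) and in the Dose II group 169 to 366 (median 232), and both overlapped the HFD group. C105 stood at 155, near the lowest HFD liver. The hepatocyte-made sum itself was 26291 ± 1704 TPM (SD, n = 8) in the control group and 24026 ± 1766 TPM (SD, n = 10) in the HFD group.

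Transcript length moved with the diet contrast. Over the 36 members Spearman's rho between the log2 fold change and length was -0.42, and over all 9099 tested genes it was -0.26, so shorter transcripts had the higher fold changes (genes share libraries and are not independent replicates). Of the 9 members in the shortest class of genes (the genes were cut by length into 3 classes of 3033) 5 rose and 2 fell, of the 23 in the middle class 3 rose and 4 fell, and of the 4 in the longest class Cfp rose and F5 fell. Over all genes, 871 rose and 382 fell in the shortest class, 520 rose and 483 fell in the middle class, and 256 rose and 784 fell in the longest. Within a library, Spearman's rho between each gene's deviation from its mean and its length was 0.106 to 0.342 in the control group, -0.221 to 0.153 in the HFD group and -0.361 in C105. A list of long transcripts of widely expressed genes moved the same way, with 8 of 14 lower and none higher in the HFD group (2 lower with C105 in the fit). With each library's trend with length removed, 8 members rose and 8 fell, beside 31.6% of all genes, 15.6% rising and 16% falling. Mbl2 was lost (0.32, adjusted p = 0.13), F2 was gained (-0.17, adjusted p = 0.092), and the other 15 calls, C1q included, were kept. Spearman's rho between the members' log2 fold change and length was still -0.31 then, so the removal did not free the members of this relation. The part of RNA quality in the values was not tested.

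Other genes of the same pathways, 20 of which were tested, showed 3 that rose and 4 that fell. That is 35%, close to the 36.2% called among all genes tested. With C105 in the fit only Mbl1 rose and Serpina5, Ggcx and Vkorc1l1 fell, while C4b (adjusted p = 0.249), Hgfac (0.171) and Colec10 (0.321) did not pass, and Colec10 did not pass either with the length trend removed (0.245). C4b, the C4 protein cleaved by MASP2 and C1s, rose (log2 fold change 0.57, SE 0.22, adjusted p = 0.0513), as did Mbl1, a second mannose-binding lectin (log2 fold change 0.54, SE 0.12, adjusted p = 0.00102), and Hgfac, an activator of hepatocyte growth factor (log2 fold change 0.48, SE 0.13, adjusted p = 0.00566). Serpina5, the protein C inhibitor, fell (log2 fold change -1.13, SE 0.28, adjusted p = 0.00304). Ggcx, the vitamin K-dependent carboxylase of clotting factors, fell (log2 fold change -0.64, SE 0.14, adjusted p = 0.000838), Vkorc1l1, a vitamin K reductase, fell (log2 fold change -0.49, SE 0.08, adjusted p = 2.93e-05), and Colec10, a liver collectin, fell (log2 fold change -0.25, SE 0.11, adjusted p = 0.0885). Of 10 acute phase genes 1 rose (Apcs, serum amyloid P component, log2 fold change 0.53, SE 0.24, adjusted p = 0.0867) and none fell, and Apcs did not pass with C105 in the fit (adjusted p = 0.323) or with the length trend removed (0.133). Of 11 regulators of liver genes 2 rose and 4 fell, which is 54.5%, beside 36.2% of all genes. With C105 in the fit 1 rose and 3 fell, beside 15.6% of all genes. Ppara (-1.05) and Onecut1 (-0.79) were the lowest on the log2 scale.

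CMA on the HFD was compared with the HFD alone at each dose. In the Dose I group no member passed the test, and in the Dose II group only Cfp fell, while the hepatocyte-made factors had a median log2 fold change of 0.02 at Dose I and 0.01 at Dose II. Dose I against HFD gave 0 of 36 members in edgeR, beside 0.187% of all genes (17 of 9099). DESeq2 gave 0 of the 34 members with an adjusted p, beside 80 of 4980 genes with one. At an unadjusted p under 0.05, 4 of 36 members were lower (C1qb, C1qc, C1s and Cfp) and none higher, beside 844 of 9099 genes (9.28%) in either direction. C1qa read 25.6 to 60.5 CPM (median 38.9), C1qb 17.6 to 39.7 CPM (median 23.96) and C1qc 23.7 to 57.2 CPM (median 31.6) in the Dose I group. These ranges overlapped those of the HFD group, with 5, 6 and 4 of 9 Dose I livers below the lowest HFD liver, and the log2 fold changes were -0.26 (-0.52 to 0.01), -0.42 (-0.69 to -0.14) and -0.35 (-0.67 to -0.02), with adjusted p of 0.565, 0.291 and 0.516. The 29 hepatocyte-made members lay between -0.23 (Fga) and 0.15 (F12). Of the 18 Kupffer cell and macrophage markers none passed, with a median log2 fold change of -0.40. The medians were -0.17 for sinusoidal endothelium and -0.16 for stellate cells and fibroblasts, also without a call. Without liver DI122 C1qb alone passed, at a log2 fold change of -0.52.

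At Dose II, properdin read 10.2 to 26.3 CPM (median 16.9) against 14 to 30.7 CPM (median 22.6) in the HFD group, and it fell (log2 fold change -0.45, SE 0.13, adjusted p = 0.0569). Most Dose II livers lay inside the HFD range, 1 of 10 being below it. This was 1 of 36 members, 2.78%, beside 5.63% of all genes, of which 3.37% rose and 2.25% fell. Cfp did not pass without liver DII135 (log2 fold change -0.39), nor with C105 in the edgeR fit (adjusted p = 0.11), while in DESeq2 with C105 it did (adjusted p = 0.0702). At an unadjusted p under 0.05, 5 of 36 members were lower (C1qb, Cfp, Mbl2, Fga and Fgg) and none higher, beside 1692 of 9099 genes (18.6%) in either direction. The hepatocyte-made members lay between -0.41 (Fgg) and 0.27 (F12).

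C1q at Dose II read 32.04 to 63.6 CPM (median 41.7) for C1qa, 19.5 to 35.3 CPM (median 25.5) for C1qb and 23.3 to 56.1 CPM (median 36.5) for C1qc. In turn, 3, 5 and 2 of 10 livers lay below the lowest HFD liver, and no subunit passed, with log2 fold changes of -0.19 (-0.44 to 0.07), -0.35 (-0.62 to -0.09) and -0.24 (-0.55 to 0.07). Of the 18 Kupffer cell and macrophage markers 8 fell and 1 (Cd14) rose at Dose II, with a median log2 fold change of -0.44, and over all 38 libraries 2 fell and 1 rose. Lower values were not confined to macrophage markers. Of 9 sinusoidal endothelium markers 2 fell (median -0.31, 1 falling over 38 libraries). The 7 stellate cell and fibroblast markers had a median of -0.20 without a call, while 2 of 11 hepatocyte markers rose (median 0.08). Of the 20 other pathway genes tested, only C5ar1 was called at Dose II (5%, beside 5.63% of all genes). C5ar1, the receptor for C5a on myeloid cells, fell (log2 fold change -0.81, SE 0.25, adjusted p = 0.0618). Mbl2 read 54.2 to 141 CPM (median 103.2) at Dose II against 74.9 to 162 CPM (median 132.5) in the HFD group (log2 fold change -0.37, SE 0.14, adjusted p = 0.143).

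**Figure D4:**
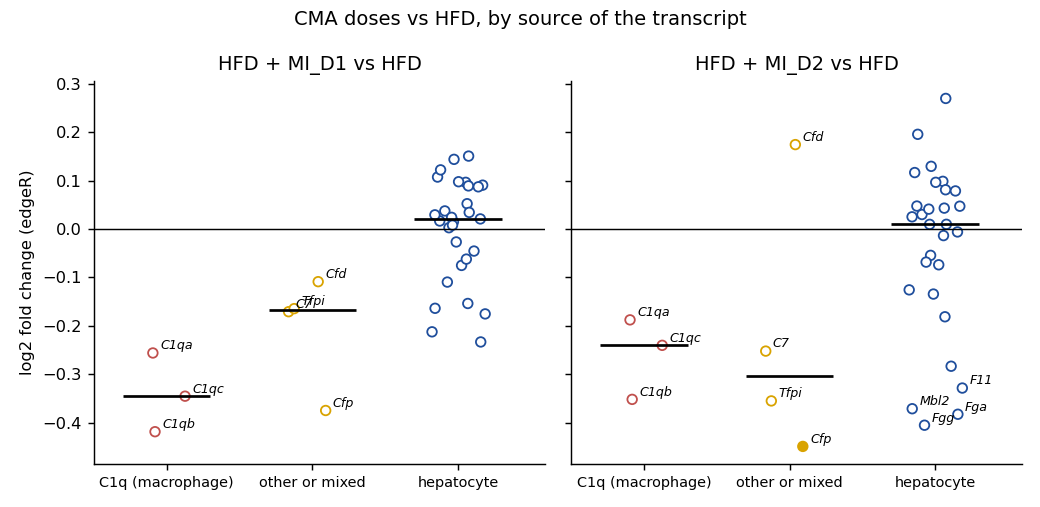
log2 fold changes of the 36 tested members against the HFD group at Dose I (HFD + MI_D1, left) and Dose II (HFD + MI_D2, right), by source of the transcript; lines are medians and the filled point passed an adjusted p of 0.1. The C1q subunits lie below 0 at both doses without passing, the hepatocyte-made members centre on 0, and the filled point is Cfp at Dose II (-0.45). Both panels share the HFD livers.

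Fibrinogen varied widely between the CMA livers. The 3 chains summed to 12186 ± 1461 TPM in the control group (SD, n = 8), 10409.7 ± 1677 TPM in the HFD group (n = 10), 9203 ± 3671 TPM at Dose I (n = 9) and 7757 ± 2339.9 TPM at Dose II (n = 10). At Dose I the sum ran from 4363 to 17061 TPM, below and above every liver of the HFD group. Against the HFD group the Dose II log2 fold changes were -0.38 (-0.71 to -0.06) for Fga, -0.28 (-0.62 to 0.06) for Fgb and -0.41 (-0.73 to -0.08) for Fgg, with adjusted p of 0.198, 0.395 and 0.17. No chain passed in this fit. With only the 2 compared groups fitted edgeR called Fgg lower, and limma on log2(TPM + 1) called Fga and Fgg lower. Over all genes these 2 fits called 215 of 8687 and 439 of 9099 lower, and 240 and 151 higher. Of the members called between the HFD and control groups, F5 had 0.00 and -0.07 at Dose I and Dose II against HFD, Masp1 -0.03 and -0.13, C8a 0.05 and 0.04, C8g 0.11 and 0.12, and Proc 0.12 and 0.20, all without passing. The 2 comparisons and the diet contrast share the HFD livers.

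**Figure D5:**
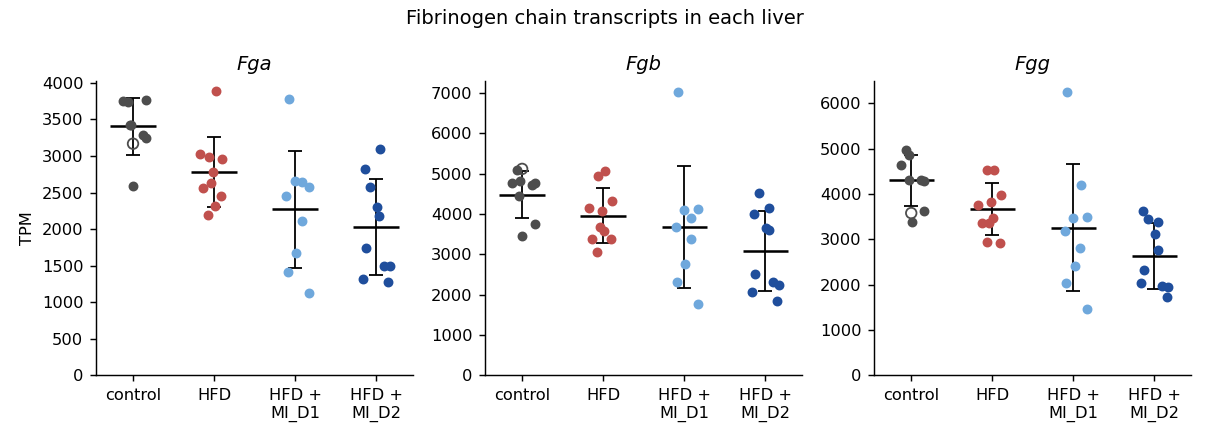
TPM of Fga, Fgb and Fgg in each liver by group (points), with mean and SD over the 37 analysed libraries (bars) and C105 as an open circle. The same liver of the HFD + MI_D1 group is highest in Fgb and Fgg, and the points spread more widely in both CMA groups than in the control group.

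Between the doses no difference was called. Dose II against Dose I gave 0 of 36 members and 0 of 9099 genes in edgeR (0%) and 0 in DESeq2, and 271 genes but no member had an unadjusted p under 0.05. The log2 fold changes of the members ran from -0.30 (Fgg, -0.63 to 0.04) to 0.28 (Cfd, -0.19 to 0.76).

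Across livers the subunits of one complex varied together. Deviations from the group mean of log2(CPM + 1) were correlated over 37 livers for 10 pairs, with 100000 permutations of livers within groups. For C1qb and C1qc Pearson's r was 0.83 and Spearman's rho 0.73, and for Fgb and Fgg they were 0.97 and 0.97, each with the smallest permutation p the resampling could give (1e-05, adjusted 1.67e-05). Without the 2 livers farthest from the median r was 0.81 and 0.96. The other pairs of C1q and of fibrinogen chains had r between 0.75 and 0.97 at the same p. The macrophage marker Csf1r went with C1qb (r = 0.63, rho = 0.64, permutation p = 0.00014 and 7e-05, adjusted 0.0002 and 0.0001, and r = 0.56 without the 2 farthest livers), and r within single groups was 0.52 to 0.74. By contrast C1qb and Fgb gave r = 0.25 and rho = 0.27 (permutation p = 0.174 and 0.123, adjusted 0.214 and 0.149, and r = 0.19 without the 2 farthest livers). C1qb and Alb (r = -0.12, rho = -0.08, permutation p = 0.528 and 0.674, adjusted 0.528 and 0.674) and Fgb and Alb (r = 0.24, rho = 0.27, permutation p = 0.192 and 0.134, adjusted 0.214 and 0.149) did not pass either, with r of -0.12 and 0.32 without the 2 farthest livers. Within single groups r was -0.28 to 0.49 for C1qb and Fgb. It was -0.20 to 0.005 for C1qb and Alb and -0.54 to 0.37 for Fgb and Alb. With C105 included, C1qb and Fgb passed.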

How the data were processed

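RNA was sequenced from 38 hamster livers. Reads were quantified by the authors with kallisto (genome MesAur1.0, Ensembl release 101), who deposited estimated counts per gene symbol without normalization. They also deposited TPM, in which counts are divided by transcript length and total. All columns matched a labelled sample.

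The estimated counts were rounded, filtered with filterByExpr on the 4 groups, TMM-normalized and compared by the quasi-likelihood F test of edgeR 4.0.16 (R 4.3.3) over 37 libraries, with a coefficient for each group. Adjustment was by Benjamini-Hochberg over 9099 genes, with calls at an adjusted p under 0.1. Control C105, which the study filtered out, was identified by refitting DESeq2 with each control left out in turn and matching the fold changes to those of the study. CPM are TMM-scaled. SE was the size of the log2 fold change over the square root of F, and intervals are 95%. Length was taken as counts over TPM, and its trend was removed per library by lowess (span 0.3). Alternatives used DESeq2 1.42.0 and limma 3.58.1. Scripts were tested on simulated counts.

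Libraries were taken as animals, since the labels name none. If they were not, p-values measure only the spread between libraries. Precision is limited by that spread and by the 4075609 to 10384523 counts per library. Members, gene lists and libraries were chosen with earlier results of these data known. Genes described in full were the C1q subunits, the 6 called members of smallest adjusted p per direction, and C3, Fga, Fgb, Fgg, F2, F7, Serpinc1, Plg and Proc; Mbl2, Cfd, F11 and Masp2 were added after their values were seen. Genes with near-identical copies may share reads in kallisto's estimates.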

Additional observations from a re-analysis of the deposited data

Results flagged for a closer look

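In 8 of 144 groups of a member's CPM values 1 liver stood apart by Dixon's test, where chance flags about 1 in 20 groups. At Dose I, liver DI123 was far above the others for Fgb (12439 CPM, next 7509) and Fgg (10684 CPM, next 6530). Liver DI122 was lowest for Serpinc1 (2411 CPM, next 2936) and Serpinf2 (411 CPM, next 573) and highest for Tfpi (6.13 CPM, next 3.34). Liver DI125 was highest for Masp1 (61.9 CPM, next 47.1). In the HFD group liver H110 was highest for Fga (11432 CPM, next 8419), and at Dose II liver DII129 was highest for Cfp (26.3 CPM, next 18.7).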

How the results depend on the processing

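For HFD vs. control, DESeq2, RLE size factors, a robust fit, no filter and a minimum of 10 counts in every library kept the same 9 members that rose and the same 7 that fell. Limma on log2(TPM + 1) or log2(TPM + 0.1) added F12 to the risers (10) and F2 and Plg to the fallers (9), the fit of only these groups added F2 and Fga to the fallers (9), and an adjusted p under 0.05 lost F11 (6). Over all 9099 genes limma called 1420 and 1429 higher and 1767 and 1705 lower on the 2 scales. Members that rose were 1 over all 38 libraries (Cfp), 2 with the length trend removed as well (C1qc and Cfp) and 1 by DESeq2 over 38 (Cfp). Members that fell were 6, 7 and 8 in the same settings. C8a fell in both of the latter settings, and F11 by DESeq2 only. The last pair of settings was chosen after seeing the data. Leaving out each library in turn gave 9 that rose each time and 5 to 10 that fell. For Dose II vs. HFD, members that fell (1) were 0 over all 38 libraries, 3 with the length trend removed (C1qb, Cfp, Mbl2), 0 with both, 5 by limma on log2(TPM + 1) and 5 on log2(TPM + 0.1) (C1qb, Cfp, Fga, Fgg, Mbl2), 2 with only the compared groups in the fit (Cfp, Fgg) and 0 at an adjusted p under 0.05, but still 1 (Cfp) by DESeq2 over 38. Over all 9099 genes, limma on log2(TPM + 1) called 439 lower and 151 higher at Dose II, and on log2(TPM + 0.1) 441 and 147. The main fit called 205 lower and 307 higher. Leaving out libraries gave 0 to 2 members that fell at Dose II, and 0 to 1 at Dose I, with 0 that rose at either dose. Without H118 or DII136 Mbl2 was added, without DII129 C1qb, and without DII135 Cfp was lost. No called log2 fold change changed sign. C1qb and Fgb passed as a correlation over 38 libraries (r = 0.35). The causes were not tested. No paired analysis was possible because replicate numbers are not shared between groups.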
